A study of Mus musculus with 2 samples.

Results

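The genes described here are 48 genes of endothelium and the blood vessel wall, measured in pancreatic islets of mice on Affymetrix microarrays. They were taken as a fixed list of symbols covering endothelial junctions and surface proteins, growth factor and vasoactive receptors, Notch signalling, secreted angiogenic factors, transcription factors, and leukocyte adhesion and clotting. Of the 48, 46 had at least 1 probe set annotated to that gene alone, out of 18193 such genes on the array. The probe set that names Ly6c1 also names other genes, and Ly6a had none in the annotation used, so no signal of either was analysed here.

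The study looked for genes controlled by ZBTB20, a zinc finger transcription factor, in beta cells, with 1 array for each genotype. The knockout-labelled array holds islet RNA of adult mice with a beta cell-specific Zbtb20 knockout, and the control array holds islet RNA of littermates labelled wildtype. Mice of both groups had a mixed background and an age of 2 to 3 months. Both islet preparations were released with collagenase, picked by hand and kept in culture overnight before freezing. The sources used here name neither the Cre driver nor the number of animals behind an array. With 1 array per genotype there was no replicate, so no ratio below has an error over animals and none was tested. A ratio is knockout-labelled over control and compares these 2 RNA preparations. The 9 Zbtb20 probe sets do not settle the genotype label. The signal was lower on the knockout-labelled array for 5 of them and higher for 4 (median log2 ratio -0.06), and the sources do not say where in the gene the deletion lies.

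Endothelial cells line blood vessels. They are held together by adherens and tight junctions, they survive and sprout under vascular endothelial growth factor (VEGF) from neighbouring cells, and Notch signalling between them restrains sprouting. Islets are among the most densely vascularised tissues, with fenestrated capillaries whose growth depends on VEGF-A made by beta cells. Islet RNA is a mixture, so the signal of an endothelial gene follows both the number of endothelial cells and the RNA per cell, and these cannot be told apart here. The deletion was labelled as specific to beta cells, so endothelial cells were not its labelled target. Several of the genes, among them Nrp1, Vcam1, Jag1, Ets1, Cav1 and Procr, are not restricted to endothelium.

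Promoter sequences are shown for the 4 genes that are at least 1.5-fold different between the arrays and that have an entry in the promoter table used, Kdr and Dll4 (higher in knockout-labelled islets) and Notch4 and Apln (lower). Each line gives the 250 bases before the start of the gene, 5′ to 3′ on the gene's strand, from RefSeq on GRCm38.p6. Capitals mark GGAAG or its reverse complement CTTCC, a core recognised by ETS transcription factors such as ERG and ETS1, which drive many endothelial genes.
Kdr (chr5:75978456-75978705, minus strand): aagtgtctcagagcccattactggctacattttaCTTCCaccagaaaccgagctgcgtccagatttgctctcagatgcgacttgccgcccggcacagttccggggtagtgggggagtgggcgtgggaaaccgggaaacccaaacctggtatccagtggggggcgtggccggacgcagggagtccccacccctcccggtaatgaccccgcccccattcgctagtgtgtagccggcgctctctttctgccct
Dll4 (chr2:119325534-119325783, plus strand): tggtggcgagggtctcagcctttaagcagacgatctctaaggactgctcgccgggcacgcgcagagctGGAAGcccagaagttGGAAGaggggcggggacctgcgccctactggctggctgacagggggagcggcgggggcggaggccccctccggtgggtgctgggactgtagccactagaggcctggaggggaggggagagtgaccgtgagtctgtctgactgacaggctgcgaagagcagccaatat
Notch4 (chr17:34564045-34564294, plus strand): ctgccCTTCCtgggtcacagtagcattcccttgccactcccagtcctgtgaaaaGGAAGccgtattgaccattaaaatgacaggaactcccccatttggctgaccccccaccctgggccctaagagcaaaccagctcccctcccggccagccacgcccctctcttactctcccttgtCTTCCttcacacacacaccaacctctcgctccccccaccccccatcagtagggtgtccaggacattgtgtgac
Apln (chrX:48034854-48035103, minus strand): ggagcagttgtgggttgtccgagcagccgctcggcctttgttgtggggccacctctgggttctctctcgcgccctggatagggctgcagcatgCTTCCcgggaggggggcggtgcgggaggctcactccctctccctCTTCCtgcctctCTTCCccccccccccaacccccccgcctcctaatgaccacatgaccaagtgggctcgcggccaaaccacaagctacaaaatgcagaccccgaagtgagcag

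The ETS core occurred at 1 position in the Kdr window, 2 in Dll4, 3 in Notch4 and 3 in Apln, so it was present both in genes with higher and in genes with lower signal. Windows of the endothelial genes held it in 23 of 32 cases (71.9%, over 26 genes with an entry, Ly6c1 among them), and all promoter windows of that length held it in 64.1% of 32851. The core of the hypoxia response element, ACGTG or GCGTG on either strand, was found at 2 positions in Kdr, 1 in Dll4, 1 in Notch4 and none in Apln. It was in 37.5% of the endothelial windows and 38.6% of all windows. A match is a string of letters and does not show binding.

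Taken as a group, the endothelial genes had nearly equal signals on the arrays. Their summed signal was 4277 in knockout-labelled islets and 4361 in control islets over the 46 genes, and the median log2 ratio was -0.02, with 0.00 for all genes. These signals are MAS5 values, 1 number on a linear scale for the matching and mismatched probes that make up a probe set. A gene is represented by its brightest probe set. The median of each array, 21.7 for knockout-labelled and 21.6 for control islets, served as a floor to which lower signals were raised, since no detection calls were available. Of the 46 genes, 39 were above the floor on both arrays, Vcam1 was above it on the control array only, and 6 were below it on both.

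A 2-fold difference was reached by no endothelial gene on the higher side and by 2 of 40 on the lower side, Nos3 and Vcam1. Among all 11802 genes above the floor on at least 1 array, 1.82% were higher by this limit and 1.44% were lower. With a limit of 1.5-fold, 2 of the 40 were higher, Kdr and Dll4, and 4 were lower, Notch4 and Apln besides the 2 above. The shares over all genes were 6.94% higher and 6.22% lower. The other 34 endothelial genes (85% of 40, with 86.8% of all genes) lay within 1.5-fold, 19 of the 40 being above 0 and 21 below. At 1.5-fold the members' shares, 5% higher and 10% lower, are near those over all genes. At 2-fold the lower share, 5%, is above the 1.44% of all genes but rests on 2 genes. For Vcam1 the knockout-labelled signal was raised to the floor, so its ratio, exactly at the limit, is a bound. The counts also depend on the floor: at the 70th percentile of each array, 25 of the genes were measured and only Apln reached 1.5-fold. For Kdr, Notch4 and Nos3 the weaker signal was then raised to the floor. Their log2 ratios of 0.12, -0.32 and -0.48 are therefore bounds, and the differences were at least that large.

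**Figure D1:**
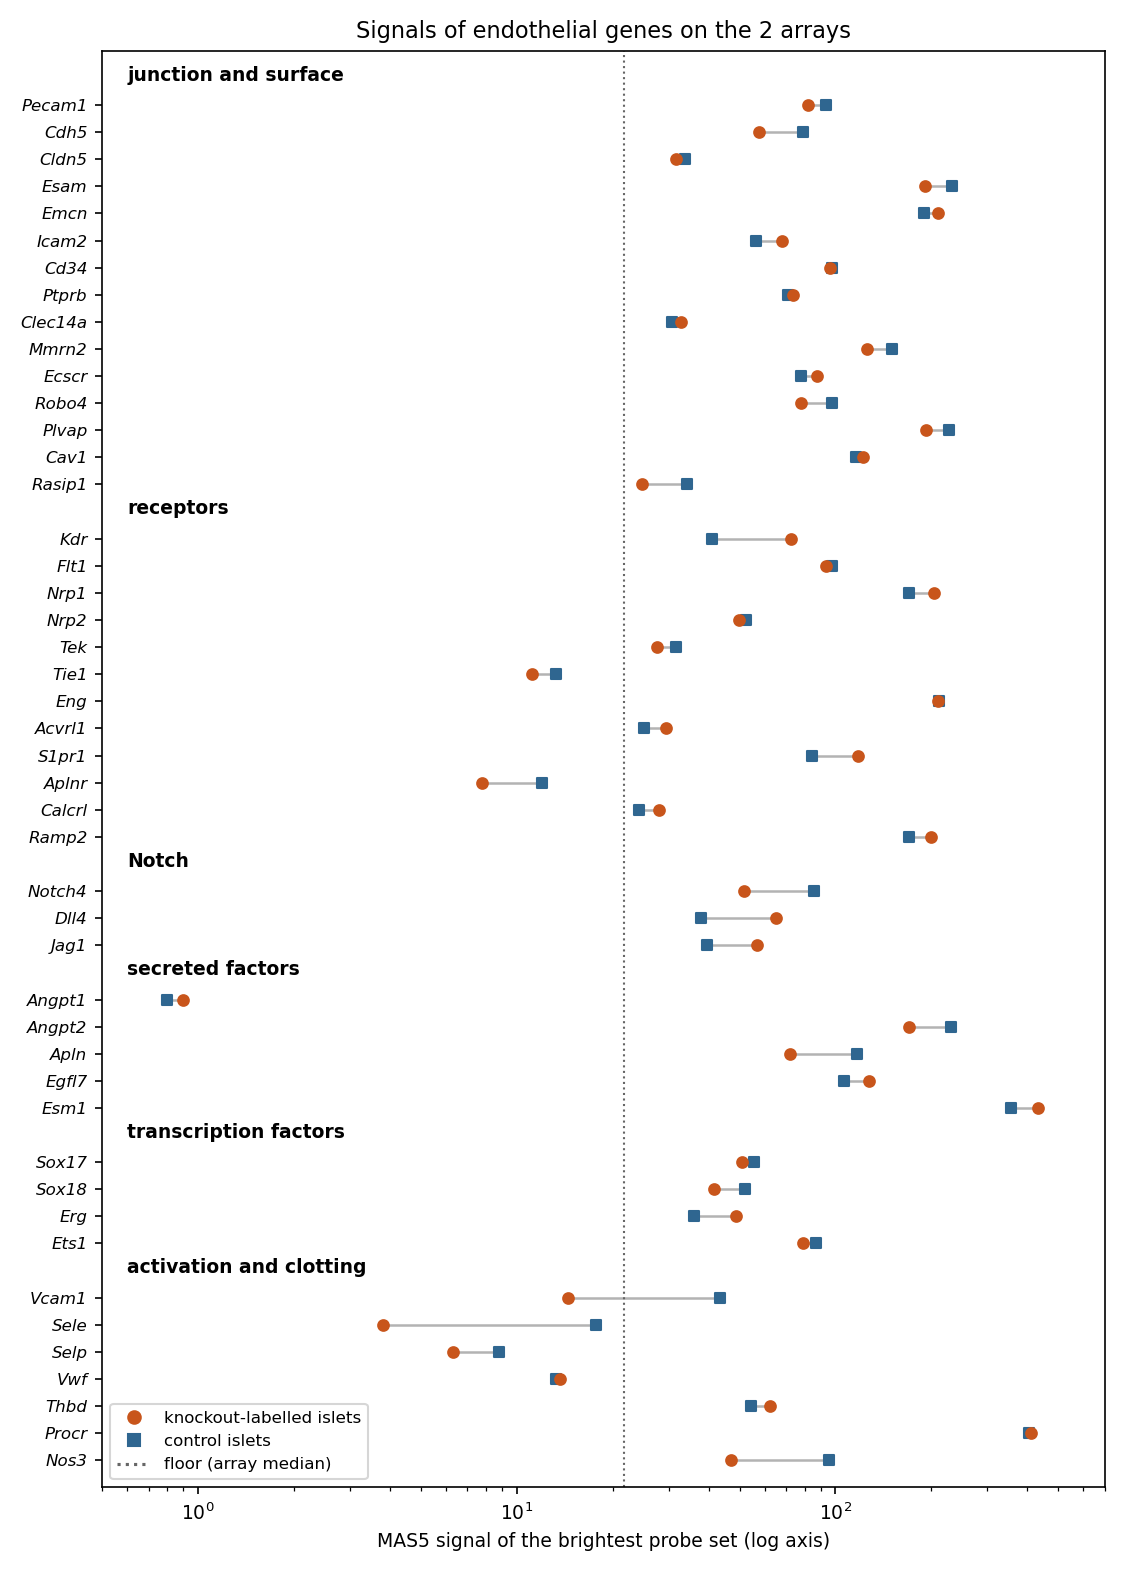
MAS5 signals (log axis) of the brightest probe set of 46 endothelial genes, grouped by role, in knockout-labelled islets (orange circles) and control islets (blue squares), with the floor as a dotted line. Most pairs nearly coincide, the widest gaps above the floor are those of Nos3, Kdr, Dll4, Notch4 and Apln, and Tie1, Aplnr, Angpt1, Sele, Selp and Vwf lie below the floor on both arrays.

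Ratios spread more widely among genes with weak signals. Among the 3862 genes that exceeded both floors and had a geometric mean signal from 25 to 100, the central 95% of log2 ratios ran from -0.97 to 0.95. Of the 27 endothelial genes in this range, only Nos3 at -1.03 lay outside it. In that range 10.3% of all genes were higher by the 1.5-fold limit and 9.99% were lower, and 2 and 3 of the 27 endothelial genes were. Among 4639 genes with a signal from 100 to 500, the central 95% ran from -0.69 to 0.75, and the 12 endothelial genes there stayed between -0.43 and 0.28.

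**Figure D2:**
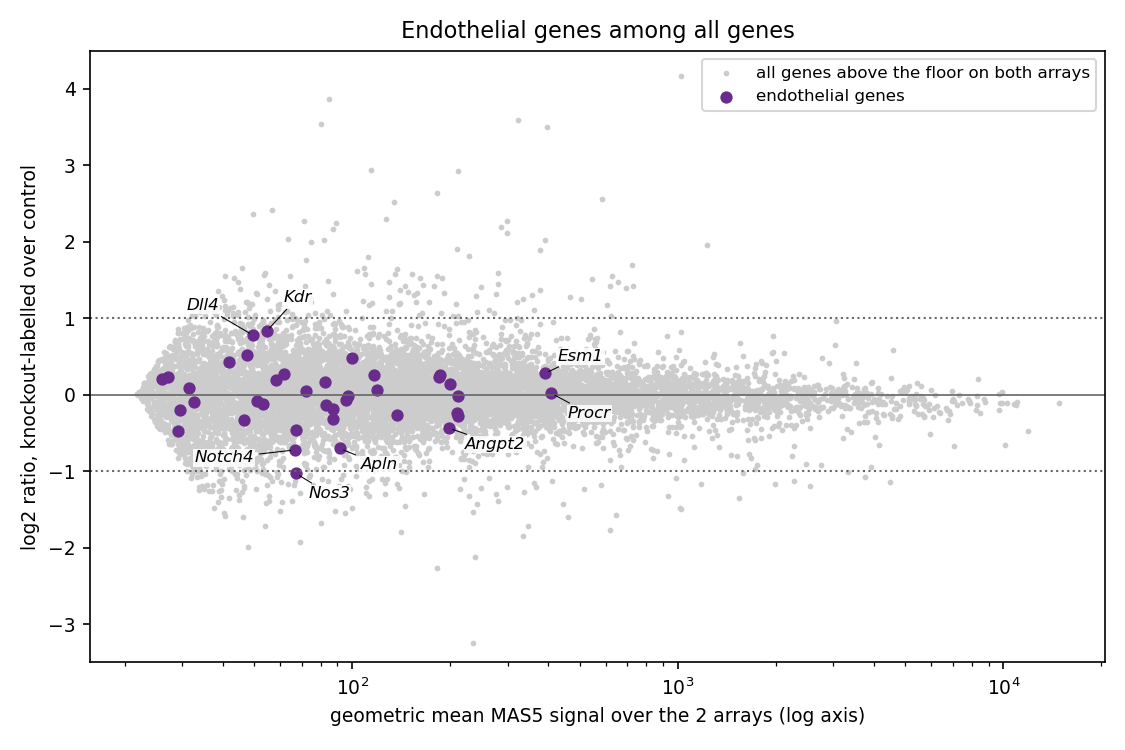
Log2 ratio (knockout-labelled over control) against the geometric mean MAS5 signal over both arrays (log axis) for the 10450 genes whose signals exceeded the floor in both preparations (grey), with the 39 endothelial genes among them in purple, with dotted lines at 2-fold. The endothelial genes lie within the cloud of all genes, Nos3 at its lower edge with a log2 ratio of -1.03.

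Junction and surface genes differed little. All 15 measured genes lay within 1.5-fold, 6 above 0 and 9 below, with log2 ratios from -0.47 to 0.27 and a median of -0.10. Pecam1, which encodes the adhesion molecule CD31 of endothelial cell contacts, had a signal of 82.2 in knockout-labelled and 93.1 in control islets. Cdh5, the gene of VE-cadherin, the adhesion protein of endothelial adherens junctions, had 57.5 in knockout-labelled and 78.9 in control islets, a 1.37-fold lower signal. The widest ratio of the group was that of Rasip1, whose product organises the actin cytoskeleton during vessel lumen formation, at 24.7 in knockout-labelled and 34.2 in control islets (1.38-fold lower). Its knockout-labelled signal was next to the floor.

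Markers of the capillary wall were likewise close. Plvap, which forms the diaphragms of fenestrae, had 192.7 in knockout-labelled and 227.7 in control islets (log2 ratio -0.24). Emcn, the sialomucin endomucin of capillary and venous endothelium, had 209.3 in knockout-labelled and 189.6 in control islets (log2 ratio 0.14). Esam, a tight junction adhesion molecule, had 191.6 in knockout-labelled and 231.6 in control islets (log2 ratio -0.27). These differences were small and went in both directions. Cldn5, a tight junction claudin, had 31.6 in knockout-labelled and 33.8 in control islets, both near the floor. Robo4, a guidance receptor of vessels, had 78.2 in knockout-labelled and 97.6 in control islets. The stem cell and endothelial sialomucin gene Cd34 was almost identical, at 96.4 in knockout-labelled and 97.6 in control islets.

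The remaining surface genes went both ways by small amounts. Icam2, a ligand of leukocyte integrins, had 68.1 in knockout-labelled and 56.3 in control islets, the highest log2 ratio of the group (0.27). Ecscr, an endothelial surface regulator of cell migration, had 87.4 in knockout-labelled and 77.7 in control islets. Cav1, the scaffold of caveolae, had 122.0 in knockout-labelled and 116.3 in control islets. Ptprb, the gene of the phosphatase VE-PTP, which acts on TIE2 and VE-cadherin, had 73.4 in knockout-labelled and 70.8 in control islets, and its other probe set above the floor gave a log2 ratio of 0.38. Clec14a and Mmrn2 encode a surface lectin and the matrix protein that binds it. Clec14a had 32.7 in knockout-labelled and 30.6 in control islets. Mmrn2 had 125.3 in knockout-labelled and 150.5 in control islets, and its 4 probe sets ran from -0.36 to 0.05 on the log2 scale.

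Receptor genes lay slightly above 0. Of the 12, 10 were above the floor, 6 with a ratio above 1 and 4 below, and their median log2 ratio was 0.22. Kdr encodes VEGFR2, the main signalling receptor for VEGF-A. Its signal was 72.8 in knockout-labelled and 40.9 in control islets, 1.78-fold higher and the widest ratio on the higher side among all 40 genes. It rests on a single probe set. Flt1, the gene of VEGFR1, a receptor that also acts as a decoy for VEGF, had 93.2 in knockout-labelled and 97.6 in control islets, with 4 probe sets from -0.07 to 0.24. The neuropilins are coreceptors for VEGF and semaphorins. Nrp1 had 203.5 in knockout-labelled and 170.4 in control islets, and all 3 of its probe sets above the floor were higher (0.26, 0.46 and 0.28 on the log2 scale). Nrp2 had 49.7 in knockout-labelled and 52.5 in control islets, with all 3 of its measured probe sets below 0.

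Receptors of other vascular ligands were within 1.5-fold. S1pr1, the receptor for sphingosine 1-phosphate that stabilises the endothelial barrier, had 117.6 in knockout-labelled and 84.3 in control islets, 1.40-fold higher from a single probe set. Eng and Acvrl1 encode endoglin and ALK1, which together receive BMP9 and BMP10 signals. Eng had 209.6 in knockout-labelled and 211.5 in control islets, while its other probe set gave a log2 ratio of 0.37. Acvrl1 had 29.5 in knockout-labelled and 25 in control islets. Calcrl and Ramp2 form a receptor for adrenomedullin. Ramp2 had 199.9 in knockout-labelled and 170.0 in control islets (log2 ratio 0.23), and Calcrl had 28 in knockout-labelled and 24.2 in control islets, next to the floor. Tek, the gene of the angiopoietin receptor TIE2, had 27.6 in knockout-labelled and 31.6 in control islets. Its partner gene Tie1 was below the floor on both arrays (11.2 in knockout-labelled and 13.3 in control islets), as was the apelin receptor gene Aplnr (7.8 in knockout-labelled and 12 in control islets).

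The 3 Notch genes went in opposite directions. Notch4, the receptor largely restricted to endothelium, had 51.8 in knockout-labelled and 85.4 in control islets, 1.65-fold lower. Its 2 other probe sets were below the floor on both arrays, so the value rests on 1 probe set. Dll4, the Notch ligand of arterial and tip cells, had 65.0 in knockout-labelled and 37.9 in control islets, 1.72-fold higher. The other Dll4 probe set was also higher, at 48.3 in knockout-labelled and 34.1 in control islets (1.42-fold), which makes Dll4 the only gene past 1.5-fold with a second probe set of the same direction above the floor on both arrays. Jag1, a Notch ligand that competes with DLL4 in vessels and is also made by other cells, had 56.9 in knockout-labelled and 39.6 in control islets, 1.44-fold higher. Another Jag1 probe set gave 33.1 in knockout-labelled and 14.6 in control islets, at least 1.53-fold higher.

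Secreted factors differed gene by gene. Apln, the gene of apelin, a peptide of sprouting endothelium, had 71.8 in knockout-labelled and 116.7 in control islets, 1.63-fold lower from a single probe set. Angpt2, the TIE2 ligand released by activated endothelium, had 170.1 in knockout-labelled and 229.8 in control islets, 1.35-fold lower, and its other probe set was above the floor on the control array only (bound of -0.19 on the log2 scale). Esm1, a proteoglycan gene of tip cells, had 430.6 in knockout-labelled and 354.5 in control islets, 1.21-fold higher. Apln, Angpt2 and Esm1 are all known as products of activated or sprouting endothelium. Their log2 ratios of -0.70, -0.43 and 0.28 each lay inside the central 95% of genes in the same signal range. Apln, with a geometric mean signal of 91.5, was near the top of its range. It would lie just outside the lower limit of -0.69 in the range from 100 to 500. Whether Apln, Angpt2 and Esm1 share a direction was not tested. Egfl7, which encodes an endothelial matrix protein, had 127.4 in knockout-labelled and 106.6 in control islets. Its 4 probe sets were split, 2 above 0 and 2 below, so no direction can be given. Angpt1, the other TIE2 ligand, made mainly by perivascular cells, was below the floor on both arrays (0.9 in knockout-labelled and 0.8 in control islets).

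Endothelial transcription factor genes were all within 1.5-fold. Erg, an ETS factor that maintains endothelial identity, had 48.6 in knockout-labelled and 36.1 in control islets, 1.35-fold higher. Ets1, another ETS factor, which lymphocytes also express, had 79.2 in knockout-labelled and 87.2 in control islets, and its 3 probe sets above the floor ran from -0.26 to 0.03 on the log2 scale. Sox17 and Sox18 are SOX factors of arterial and lymphatic fate. Sox18 had 41.5 in knockout-labelled and 52.2 in control islets, 1.26-fold lower. Sox17 had 51.0 in knockout-labelled and 55.4 in control islets, but its other probe set gave 31.1 in knockout-labelled and 20.2 in control islets, a difference of the opposite sign.

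The genes of vascular tone, leukocyte adhesion and clotting held both 2-fold differences. Nos3 encodes endothelial nitric oxide synthase, which makes the nitric oxide that relaxes vessels. Its signal was 47.0 in knockout-labelled and 95.8 in control islets, 2.04-fold lower from its only probe set. Vcam1 encodes the adhesion molecule VCAM-1, which activated endothelium displays to leukocytes and which stromal cells also carry. Its brightest probe set had 14.5 in knockout-labelled islets, below the floor, and 43.4 in control islets, at least 2.00-fold lower, exactly at the limit. Another Vcam1 probe set had 16.2 in knockout-labelled and 26 in control islets, and the remaining one went the other way, with 23.1 in knockout-labelled and 16.8 in control islets. Each of the 3 was above the floor on 1 array only, so their log2 ratios are bounds, with a mean of -0.39. The difference of Vcam1 thus depends on the probe set, and the one of opposite sign was next to the floor.

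The anticoagulant genes showed no such difference. Thbd, which encodes thrombomodulin, had 62.2 in knockout-labelled and 54.5 in control islets. Procr, the endothelial protein C receptor gene, had 411.3 in knockout-labelled and 405.4 in control islets. Both selectin genes and Vwf, the von Willebrand factor gene often used as an endothelial marker, were below the floor on both arrays. Sele had 3.8 in knockout-labelled and 17.7 in control islets, Selp 6.3 in knockout-labelled and 8.8 in control islets, and Vwf 13.7 in knockout-labelled and 13.3 in control islets. No ratio is given for genes below the floor on both arrays, and a signal below the array median does not show that the transcript was absent. Of the endothelial markers in the list, Pecam1, Cdh5, Emcn, Plvap, Esam, Kdr and Eng were above the floor on both arrays. Vwf, Tie1, Sele, Selp and Aplnr were below it on both. A signal above an array median does not by itself identify a cell type.

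**Figure D3:**
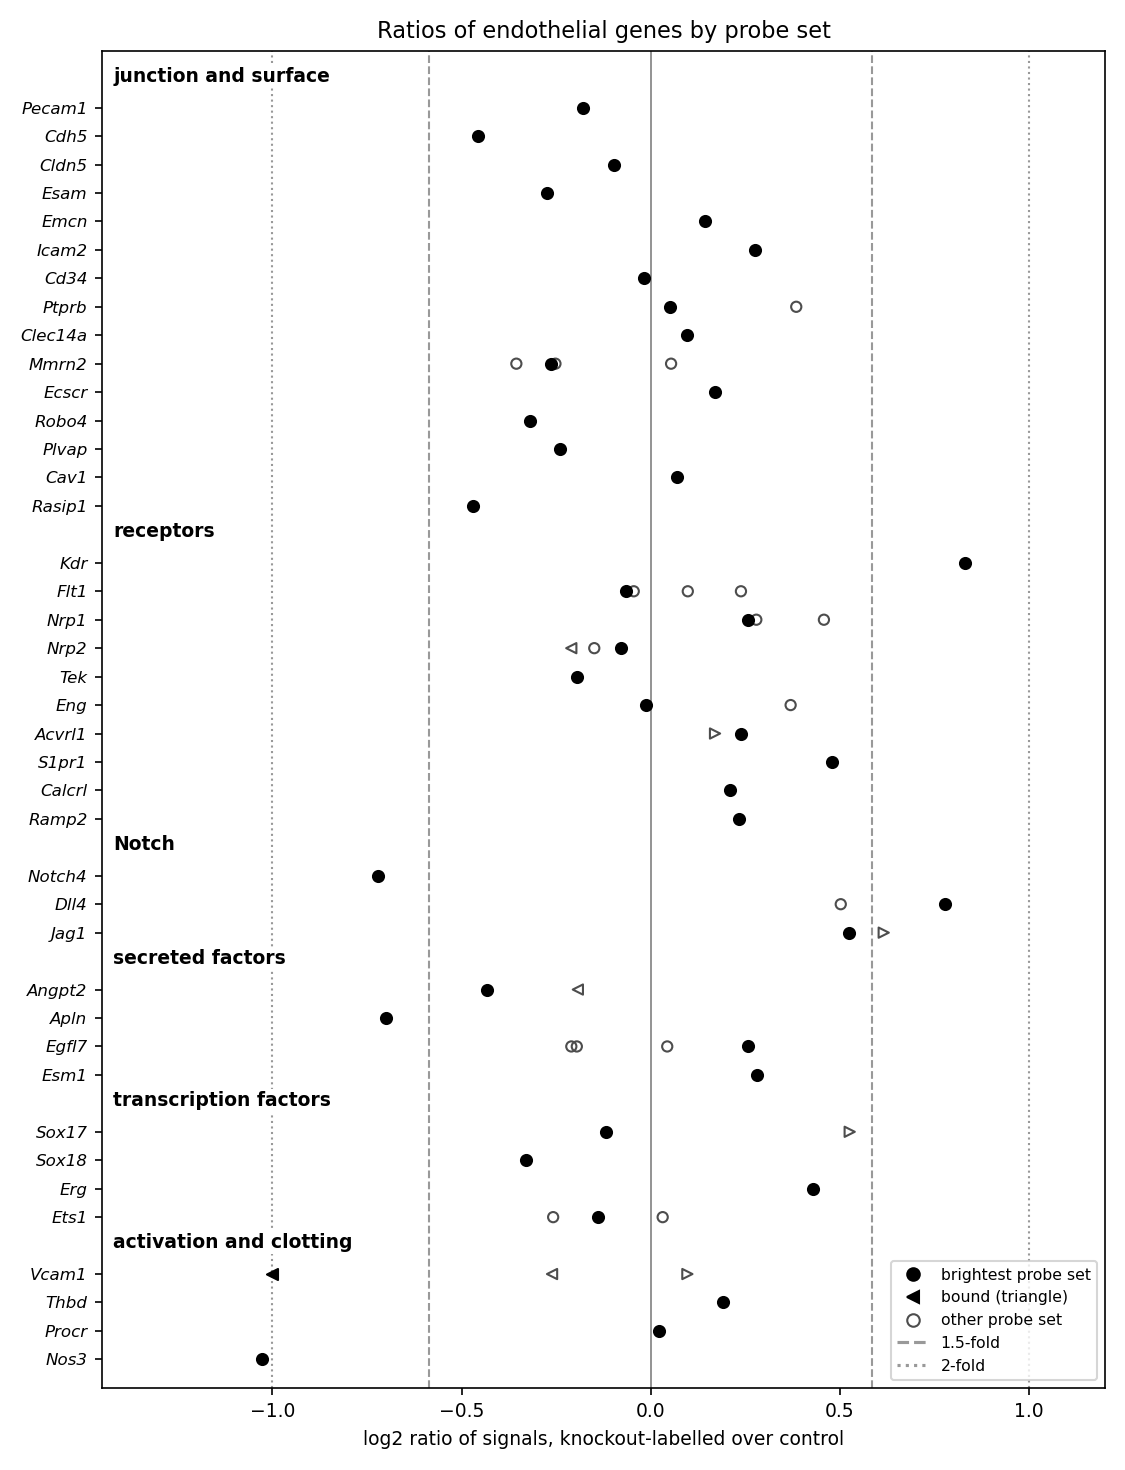
Log2 ratio (knockout-labelled over control) of each probe set above the floor on at least 1 array for 40 endothelial genes, by role. Filled marks are the brightest probe set, open marks the others, and triangles are bounds. Nos3 and Vcam1 reach the 2-fold line on the lower side, and the probe sets of Vcam1, Sox17, Egfl7, Eng, Mmrn2, Flt1 and Ets1 fall on both sides of 0.

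Several probe sets for a gene are read from the same RNA on the same array, so how closely they match reflects the measurement and not variation between animals. Of 14 endothelial genes with more than 1 probe set above the floor, 7 had all of them on 1 side of 0 and 7 had them on both sides. The median SD of log2 ratios among probe sets of a gene was 0.18 for the 9 endothelial genes with several probe sets above the floor on both arrays and 0.21 for 4719 genes. Many of the ratios above are no larger than this.

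VEGF and other angiogenic ligands formed a separate list of 17 genes, and not all of them bind the receptors above. Of the 12 above the floor, 4 were above 0 and 8 below, with a median log2 ratio of -0.21. At 2-fold, 1 was lower (8.33%, with 1.44% of all genes) and none higher (1.82% of all genes). At 1.5-fold, 2 were higher and 4 lower (16.7% and 33.3%, with 6.94% and 6.22% of all genes). Vegfa, the ligand of KDR and FLT1, had 566.8 in knockout-labelled and 902.2 in control islets, 1.59-fold lower. Its other probe set gave a smaller difference, at 299.8 in knockout-labelled and 339.0 in control islets (log2 ratio -0.18). Pgf, the placental growth factor gene, whose product binds FLT1, had 63.5 in knockout-labelled and 91.1 in control islets, 1.43-fold lower. Adm, the gene of adrenomedullin, the ligand of CALCRL with RAMP2, had 36.4 in knockout-labelled and 82.3 in control islets, 2.26-fold lower. Its second probe set was close to this, with a log2 ratio of -1.09. Edn1, the gene of the vasoconstrictor endothelin-1, had 20.3 in knockout-labelled islets, below the floor, and 35.7 in control islets, at least 1.65-fold lower. The 2 ligand genes that were at least 1.5-fold higher, named here after their values were seen, were Gdf2 and Pdgfa. Gdf2, the gene of BMP9, had 40.9 in knockout-labelled islets and 5.4, below the floor, in control islets (at least 1.89-fold), and Pdgfa had 97.6 in knockout-labelled and 61.6 in control islets (1.58-fold). The ligand genes thus differed in both directions.

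Other endothelial genes that were not among the 48 also had medians near 0. Of 28 surface and signalling genes, 23 were above the floor, with a median log2 ratio of -0.07. In each direction 1 gene reached 2-fold (4.35%), with 1.82% higher and 1.44% lower over all genes. Their summed signal was 3601 in knockout-labelled and 4335 in control islets. Besides Efnb2, Lpl and Unc5b were at least 1.5-fold lower, which makes 13% of the 23, with 6.22% over all genes. Lpl and Unc5b are named here after their values were seen. Lpl, the lipoprotein lipase gene, which other cells also express, had 1112 in knockout-labelled and 1911 in control islets (1.72-fold lower). Its gap was wider than that between the summed signals of the list, so the lower sum rested on Lpl. Unc5b, a guidance receptor gene, had 39.3 in knockout-labelled and 70 in control islets (1.78-fold lower). The gene 2-fold higher was Cd36, a fatty acid receptor gene of microvessels and macrophages, at 69.9 in knockout-labelled and 23.7 in control islets (2.95-fold), its control signal being next to the floor and its 2 other probe sets also higher. The gene 2-fold lower was Efnb2, the ephrin-B2 gene of arterial endothelium, at 22.6 in knockout-labelled and 52.1 in control islets (2.31-fold), its knockout-labelled signal being next to the floor and its other measured probe set at -0.49. Cd93, a surface partner of MMRN2, had 142.1 in knockout-labelled and 105.6 in control islets, and the adhesion gene Icam1 had 36.5 in knockout-labelled and 40.9 in control islets. Of 16 further endothelial transcription factor genes, 9 were above the floor, none at 1.5-fold, with a median of -0.14. Klf4, a factor induced by flow that other cells also make, had 374.7 in knockout-labelled and 346.4 in control islets. Fli1 and Klf2, factors of endothelial identity and flow response, were below the floor on both arrays.

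Lists of other cell types and states were read beside these values. The 8 measured pericyte and smooth muscle genes had a median of 0.28 on the log2 scale, 6 above 0 and 2 below, none at 2-fold. Only 6 of the 8 were above the floor on both arrays. At 1.5-fold none was higher and 1 was lower (12.5%, with 6.22% of all genes). This was Kcnj8, named here after its value was seen, at 22.6 in knockout-labelled and 38.7 in control islets (1.71-fold lower). Its knockout-labelled signal was next to the floor. Pdgfrb had 55.4 in knockout-labelled and 54.1 in control islets. Rgs5, a pericyte gene, had 245.6 in knockout-labelled and 197.1 in control islets, although its 4 probe sets were split, 2 above 0 and 2 below. Of 5 measured lymphatic genes, Reln alone was at least 2-fold lower (44.2 in knockout-labelled and 107.6 in control islets). That is 20% of the 5, with 1.44% of all genes, and the list median was -0.32. Platelet genes, relevant to Selp and Vwf, had a median of 0.00 over 6 genes.

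Over all 11802 genes, 5893 were above 0 and 5879 below. Macrophage genes, which bear on Cd36, were above 0 for 12 of 13 measured, with a summed signal of 1579 in knockout-labelled and 1008 in control islets. Mrc1, Fcer1g, C1qb and Tyrobp were at least 2-fold higher (30.8%, with 1.82% of all genes), and none was 2-fold lower. Hypoxia response genes were below 0 for 15 of 16, with a summed signal of 14347 in knockout-labelled and 21999 in control islets. Of the 16, 3 were at least 2-fold lower (18.8%, with 1.44% of all genes) and none was 2-fold higher. Vegfa, Adm, Apln and Angpt2, which are among the genes known to be induced by hypoxia, were lower on the same array. Kdr, Dll4 and Esm1 were higher, and Flt1 had probe sets on both sides of 0. This selection was made with the values known, and a link to hypoxia was not tested. Genes of NF-kappaB signalling and inflammation, which are known to induce Vcam1 and Sele in endothelium, were below 0 for 10 of 12 (median -0.70), while Icam1 differed by 1.12-fold. Of the 12 inflammation genes, 5 were at least 2-fold lower (41.7%, with 1.44% of all genes) and none was 2-fold higher. Acinar genes had a summed signal of 17637 in knockout-labelled and 32134 in control islets, and endocrine genes had 85763 in knockout-labelled and 92713 in control islets. Of the 9 measured acinar genes, 4 were at least 2-fold lower (44.4%) and none was 2-fold higher. The part of these differences in the endothelial values was not tested.

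**Figure D4:**
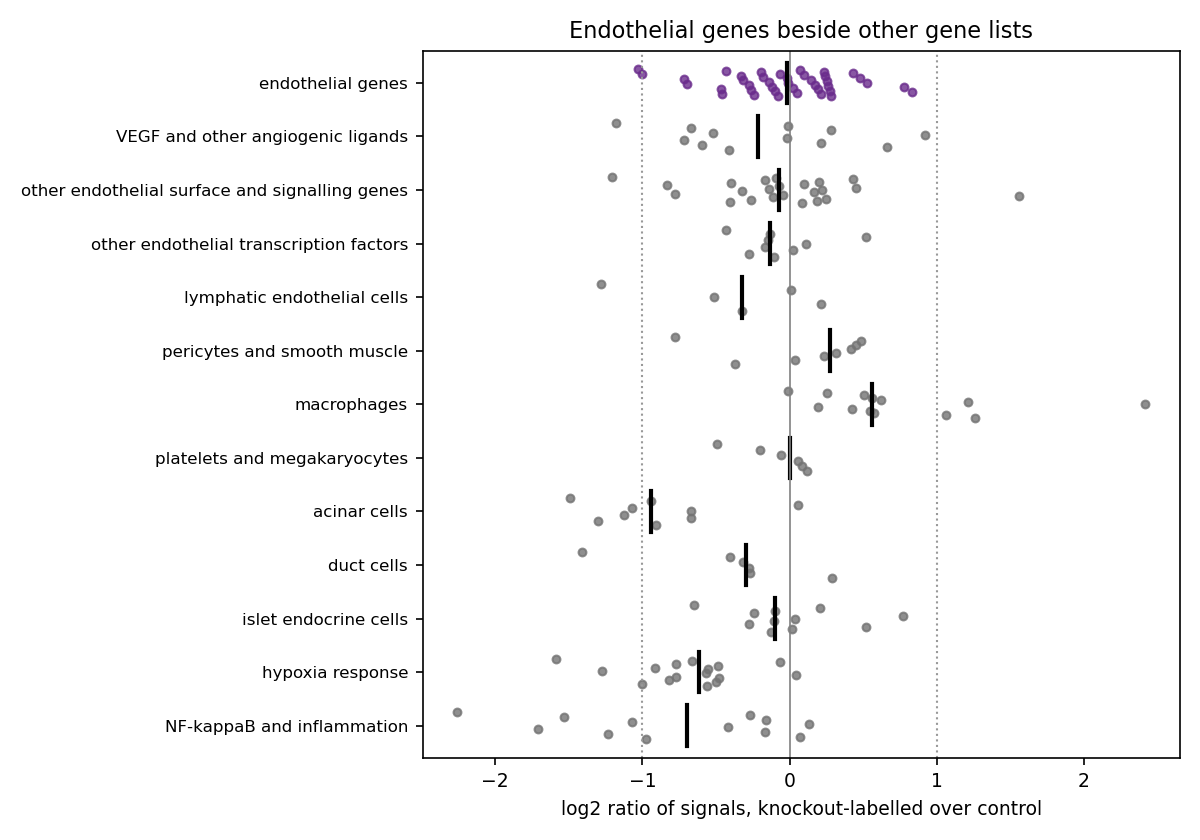
Log2 ratios (knockout-labelled over control) of single genes in the endothelial list (purple) and in 12 other lists (grey), with the median of each list as a black bar and dotted lines at 2-fold. The endothelial median is -0.02, the macrophage list lies to the higher side, and the acinar, hypoxia and inflammation lists lie to the lower side.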

How the data were processed

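Islet RNA of 1 knockout-labelled and 1 control array was analysed, grouped by the genotype label. Each deposited value is a linear intensity of a probe set from MAS5, per the submitters' processing notes. Its version, scaling target and detection calls are not given in the sources used here. For 45037 probe sets these were used unchanged. The number of arrays limits the precision.

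The platform annotation, which can be old, named 1 gene for 34945 probe sets, several for 932 and none for 9160, and only the first kind was used. All 46 measured members matched RefSeq (GRCm38.p6) by Entrez identifier with no change of symbol. Signals under an array's median were raised to it, the log2 ratio was taken for the brightest probe set of a gene, and genes not above the floor on either array were left out. A gene was counted from a ratio of 2, and from 1.5, over all 11802 genes. Calculations used Python 3.11.15 with pandas 2.3.3 and statsmodels 0.14.6 and were tested on simulated data.

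Every member was to be named, and of other lists only genes at least 2-fold apart (at most 4 a list) or 11 chosen by name. The members and lists were chosen with earlier results of these data known. Alternatives were 3 scalings, 3 floors, 2 choices of probe set and a 3-fold limit.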

Additional observations from a re-analysis of the deposited data

How the results depend on the processing

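No paired analysis was possible because each genotype has 1 array. The member counts at 2-fold and 1.5-fold were equal to those reported under division by the array median, quantile normalization and loess, and the median log2 ratio of the members stayed between -0.04 and 0.04 over all settings. With the floor at the 70th percentile, which kept 25 members, 0 were at least 2-fold lower, 0 at least 1.5-fold higher and 1, Apln, at least 1.5-fold lower. When 16 was added to every signal in place of a floor, which shrinks ratios of weak genes, 0 were at least 2-fold lower, and Sele took the place of Notch4 among the 4 at least 1.5-fold lower. Averaging the probe sets of each gene left 1 at least 2-fold lower, Nos3. At a limit of 3-fold, 0 were lower. With the floor at the 30th percentile, 3 were at least 2-fold lower, Sele besides Nos3 and Vcam1. The log2 ratio ran from -1.05 to -0.48 for Nos3, from -1.58 to -0.39 for Vcam1 and from 0.12 to 0.83 for Kdr. The values nearest 0 for Nos3 and Kdr came from the highest floor. They are bounds, because the weaker signal was raised to that floor. The value nearest 0 for Vcam1 came from averaging its 3 probe sets, whose ratios are bounds as well. The ratios of Dll4, Notch4 and Apln kept their sign wherever they could be computed. Most members had signals within a few times the floor, so differences well under 2-fold could not be told from the spread of weak genes.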
